A study of Arabidopsis thaliana with 8 samples.

Results

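Transcripts of 40 protein-degrading enzyme genes of Arabidopsis thaliana were followed in rosettes of WRKY insertion lines and of the wild type. The 40 genes belong to 3 families and comprise 7 subtilases (SBT), 29 serine carboxypeptidase-like genes (SCPL) and 4 vacuolar processing enzymes (VPE). They were chosen by name alone: a probe set had to be paired with 1 gene whose annotated symbol starts with SBT or SCPL and a digit, or contains VPE. Each of the 40 probe sets stands for a different gene, out of 22746 probe sets on the array besides controls. Another 2 probe sets are shared by several such genes and were left out.

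The samples were 6 WRKY T-DNA knockout lines (KO-02, KO-07, KO-30, KO-40, KO-54, KO-56) and the accession Col-0 (Col-0-L, Col-0-S), each hybridised to 1 ATH1 array. WRKY proteins are plant regulators that bind DNA, and the series concerns those of group II-A in early leaf senescence. All plants were 35 days old, had just begun to bolt, and grew in autoclaved substrate that had been treated with the insecticide imidacloprid, in the lines and in Col-0 alike. The rosette was sampled whole, without stem and flowers. The labels state neither the gene hit in each line, whose level was therefore not checked, nor the number of plants per sample, and do not explain L and S. Separate cultures are not stated either. The p-values therefore measure only how far these arrays spread, which may be technical, and the spread among the lines also holds differences between genotypes.

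Plants break down protein in several places. Subtilases are serine proteases that mostly act outside the cell, where they trim precursors of peptide hormones and cell wall enzymes. Serine carboxypeptidases remove amino acids from the end of a protein in the vacuole or wall, and some members of the family have become acyltransferases that build secondary metabolites. Vacuolar processing enzymes are cysteine proteases that cut after asparagine, activate other vacuolar proteins and take part in vacuole-driven cell death. In senescing leaves, vacuolar proteolysis helps to recover nitrogen for export. No sequences were read for these genes.

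Values are MAS5 signals on a linear scale, which the authors had scaled so that the trimmed mean of every array was 100.01. Differences are between values of log2(signal + 5), so those of dim genes are understated, and a probe set was tested where its mean log2 value exceeded the 30th percentile. This left 15922 of 22746 probe sets and 22 of the 40 genes. Levels of different probe sets cannot be set against each other, so genes are compared only by their differences between arrays. The leaf genes RCA, which activates Rubisco, and LHCB4.1, a light-harvesting protein, gave 2710 to 3347 and 3442 to 4079 in the lines, against 3081 to 4030 and 3958 to 4740 in Col-0. Of the flower markers listed only TUA1 had a probe set paired with it alone in the annotation used here. Its signal was 96.1 to 123.9 in the lines and 99.2 to 113.3 in Col-0. The actin control's 3′ to 5′ signal ratio, which grows as RNA degrades, was 29.5 in KO-54, 15.4 in KO-30, 8.41 to 12.0 in the other 4 lines, and 9.98 and 10.9 in Col-0. The other control pairs parted less. A second actin pair had 3.72 in KO-54, 2.35 in KO-30, and 2.00 (Col-0-L) and 1.83 (Col-0-S) in the wild type. In the same order GAPDH had 2.46, 1.62, 1.23 and 1.41, and ubiquitin had 2.74, 2.49, 2.68 and 2.41. Precision is limited by the number of arrays.

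Set against Col-0 as a class, the 6 lines were compared for what they share, and no member of the 3 families passed the test. With limma's adjusted p, 0 of the 22 genes were called, as were 0 of all 15922 probe sets (0% called). At an unadjusted p under 0.05 the count was 0 of 22, against 3.72% of all probe sets. Mean differences were positive for 7 of the 22 genes and negative for 15, with a median log2 difference of -0.07, while 47.3% of all probe sets had a positive difference and their median was -0.01. All 6 lines lay beyond both Col-0 arrays for 2 of the 22 genes, SCPL45 and scpl48, against 6.24% of all probe sets (3.13% above and 3.1% below). The 2 Col-0 arrays themselves differed by a median of 0.15 over the 22 genes and of 0.16 over all probe sets, on the log2 scale and without regard to sign. In whole rosettes, fewer cells of a type and less RNA per cell cannot be told apart.

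**Figure D1:**
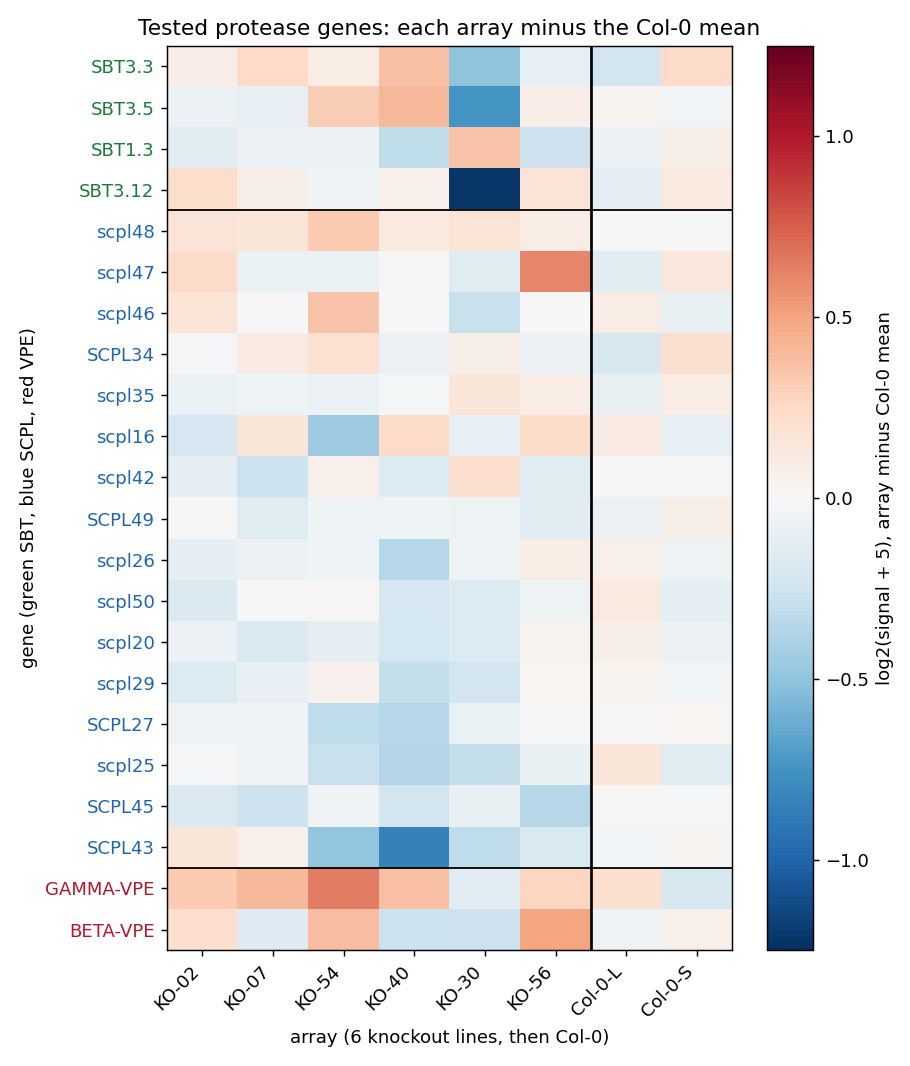
Difference of each array from the Col-0 mean on the log2(signal + 5) scale, for the 22 tested genes (rows; green SBT, blue SCPL, red VPE) on the 6 knockout lines and, right of the black line, Col-0-L and Col-0-S (columns). The darkest cell is SBT3.12 in KO-30 (-1.22), and GAMMA-VPE is red in every line but KO-30.

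**Figure D2:**
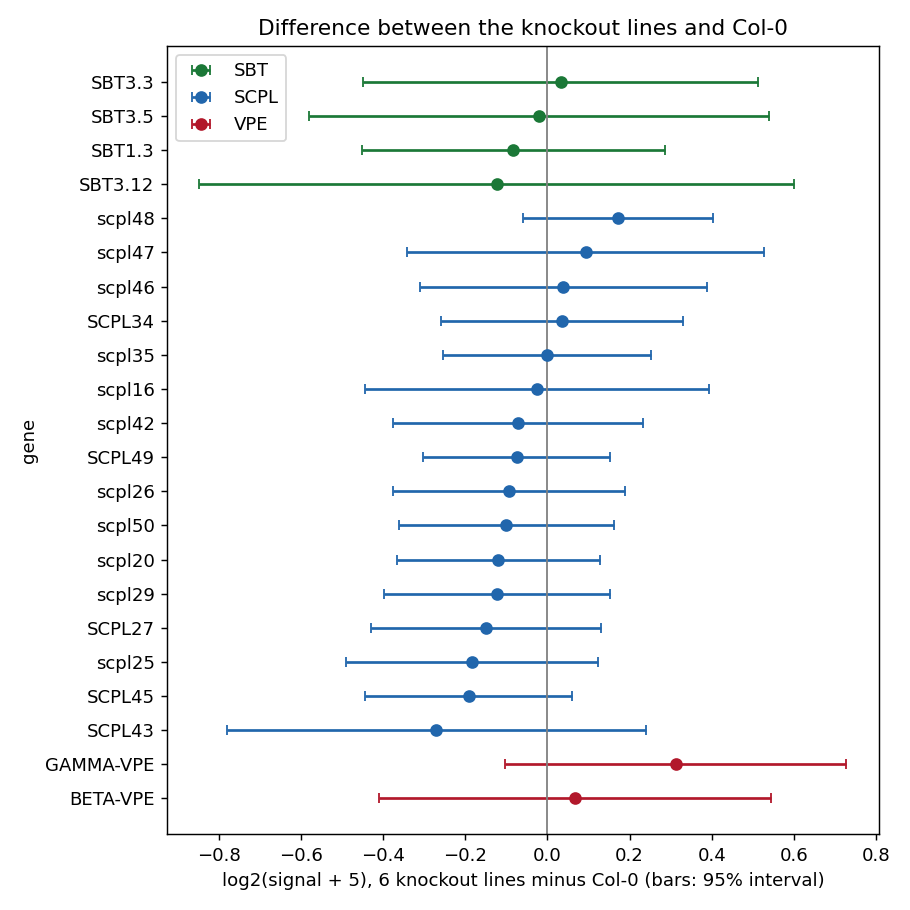
Mean difference between the 6 lines and Col-0 (x axis, log2(signal + 5) scale) for the 22 tested genes (y axis), with bars for limma's 95% interval. Points run from -0.27 for SCPL43 to 0.31 for GAMMA-VPE, and each interval spans 0.

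GAMMA-VPE (AT4G32940), the main vacuolar processing enzyme of vegetative tissue, had the largest positive difference of the 22 genes. Its signal was 1433 in KO-02, 1513 in KO-07, 1777 in KO-54, 1477 in KO-40, 1032 in KO-30 and 1378 in KO-56, against 1309 (Col-0-L) and 994 (Col-0-S) in the wild type. Thus 5 of 6 lines lay above both Col-0 arrays, and KO-30 lay between them. The means were 1435 ± 241 (SD, n = 6) in the lines and 1151 ± 222 (SD, n = 2) in Col-0. The log2 difference was 0.31 ± 0.19 (SE; limma adjusted p = 0.989), with a 95% interval from -0.10 to 0.73. The Col-0 arrays themselves differed by 0.39 (Col-0-L minus Col-0-S), more than the lines did from Col-0. The difference was 0.51 with Col-0-S as the only wild-type array and 0.11 with Col-0-L.

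The line with the highest GAMMA-VPE signal was KO-54, at 154% of the Col-0 mean. Its log2 difference from Col-0 was 0.64 ± 0.26 (SE; limma unadjusted p = 0.0343, adjusted p = 0.440). Against the other 5 lines, where signals ran from 1032 to 1513, it was 0.39 ± 0.23 (limma adjusted p = 0.694). KO-54 also had the highest actin 3′ to 5′ ratio, 29.5, whose part in this value was not tested. In that line 2 of the 22 genes reached an unadjusted p under 0.05, GAMMA-VPE and scpl48, where 10.5% of all probe sets did. The test of KO-54 called 11 probe sets (0.0691%), none of them one of the 22 genes.

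BETA-VPE (AT1G62710), best known for processing storage proteins in seeds, differed in opposite directions between lines. It had 79.5 in KO-02, 60.5 in KO-07, 90.3 in KO-54, 55.6 in KO-40, 56.1 in KO-30 and 97.7 in KO-56, against 65.0 (Col-0-L) and 71.3 (Col-0-S) in the wild type. Of the lines, 3 lay above both Col-0 arrays and 3 below both. The mean difference was 0.07 ± 0.22 (SE; limma adjusted p = 0.994), and the value of KO-56 was 0.49 ± 0.28 above Col-0 (limma adjusted p = 1).

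The other vacuolar processing enzymes stayed below the filter and were not tested. ALPHA-VPE (AT2G25940), also a vegetative enzyme, had 1.26 to 6.63 in the lines, against 2.38 and 1.53 in Col-0. DELTA-VPE (AT3G20210), known from the seed coat, had 0.679 to 6.90 in the lines, against 0.997 and 4.18 in Col-0. Neither signal reached 10 on any array, and the groups overlapped for both genes.

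**Figure D3:**
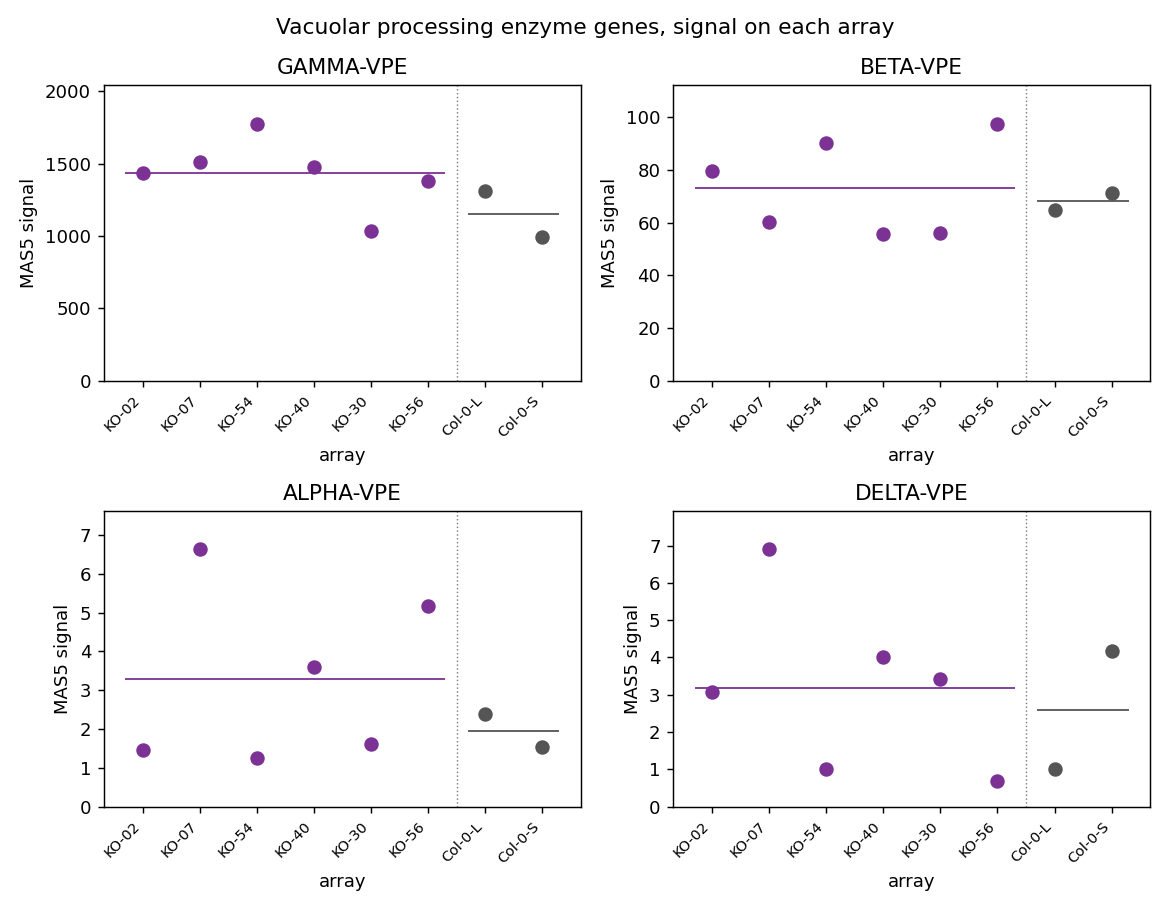
MAS5 signal (y axis, linear, from 0) of the 4 vacuolar processing enzyme genes on each array (x axis), lines in purple and Col-0 in grey, with horizontal lines at the group means. GAMMA-VPE exceeds both Col-0 values in 5 of 6 lines, while BETA-VPE lies on either side.

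Among the subtilases, 4 of 7 passed the filter, and as a class the lines did not part from Col-0. Of the 4, 1 had a positive and 3 a negative difference (median -0.05), from 0.03 ± 0.22 (SE) for SBT3.3 to -0.12 ± 0.33 for SBT3.12, with limma adjusted p from 0.991 to 0.998. The median ran from -0.18 to 0.11 when 1 array was left out (-0.18 without Col-0-L, 0.11 without KO-30). The median SD of the log2 values over the 6 lines was 0.36 for the 4 subtilases, 0.14 for the 16 tested SCPL genes and 0.19 for all probe sets. The spread of the subtilases rested on KO-30: without it the median SD was 0.14 for the subtilases, 0.13 for the SCPL genes and 0.16 for all probe sets, a setting chosen after seeing the data.

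KO-30 was the array at the edge for each of the 4 subtilases. It was the lowest of the 8 arrays for SBT3.3, SBT3.5 and SBT3.12 and the highest for SBT1.3. Over all probe sets tested KO-30 was the lowest array for 20.9% and the highest for 15.5%. KO-30 was taken up for the subtilases after these values were seen. The same values enter its contrasts below, which are therefore no independent support.

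SBT3.12 (AT4G21326) had the largest difference of any of the 22 genes in any line. Its signal was 13.6 in KO-30, against 37.1 to 45.4 in the other 5 lines and 34.7 and 42.2 in Col-0. KO-30 thus held 35.5% of the Col-0 mean, and no other array overlapped with it. The log2 difference from Col-0 was -1.22 ± 0.17 (SE; limma unadjusted p = 6.15e-05, adjusted p = 0.326), and that from the other 5 lines was -1.31 ± 0.15 (unadjusted p = 1.44e-05, adjusted p = 0.100). With trended and robust variances the second value passed (adjusted p = 0.0326). The difference of this dim gene from Col-0 was -1.42 with a pseudocount of 1 and -0.78 with a pseudocount of 21.

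SBT3.5 (AT1G32940), which processes a pectin methylesterase of the cell wall, had 39.7 in KO-30. The other lines had 66.2 in KO-02, 64.9 in KO-07, 87.8 in KO-54, 94.99 in KO-40 and 74.7 in KO-56, and Col-0 had 71.9 and 68.3. KO-30 lay below every other array, at -0.75 ± 0.23 (SE) from Col-0 (limma unadjusted p = 0.0104, adjusted p = 0.470) and -0.87 ± 0.21 from the other 5 lines (adjusted p = 0.152). KO-40 lay at the opposite end, at 0.41 ± 0.35 from Col-0 (limma adjusted p = 0.929), the largest positive difference of the 22 genes in that line.

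SBT3.3 (AT1G32960), known for a role in immune priming, is separated from SBT3.5 by 1 protein-coding gene. Its signal was 39.2 in KO-30, against 53.3 to 75.4 in the other 5 lines, 47.9 (Col-0-L) and 69.0 (Col-0-S) in the wild type. KO-30 was again the lowest array, at -0.50 ± 0.24 (SE) from Col-0 (limma adjusted p = 0.627) and -0.64 ± 0.22 from the other 5 lines (adjusted p = 0.247). The difference of KO-30 from Col-0 was -0.74 without Col-0-L and -0.26 without Col-0-S. The gap between the Col-0 arrays (-0.49, Col-0-L minus Col-0-S) was the widest of the 22 genes.

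SBT1.3 (AT5G51750) went the other way, with 263 in KO-30, against 163 to 194.9 in the other 5 lines and 194 and 216 in Col-0. The log2 difference was 0.35 ± 0.17 (SE) from Col-0 (limma adjusted p = 0.617) and 0.52 ± 0.15 from the other 5 lines (unadjusted p = 0.00649, adjusted p = 0.198). Of the other lines, 4 lay below both Col-0 arrays.

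**Figure D4:**
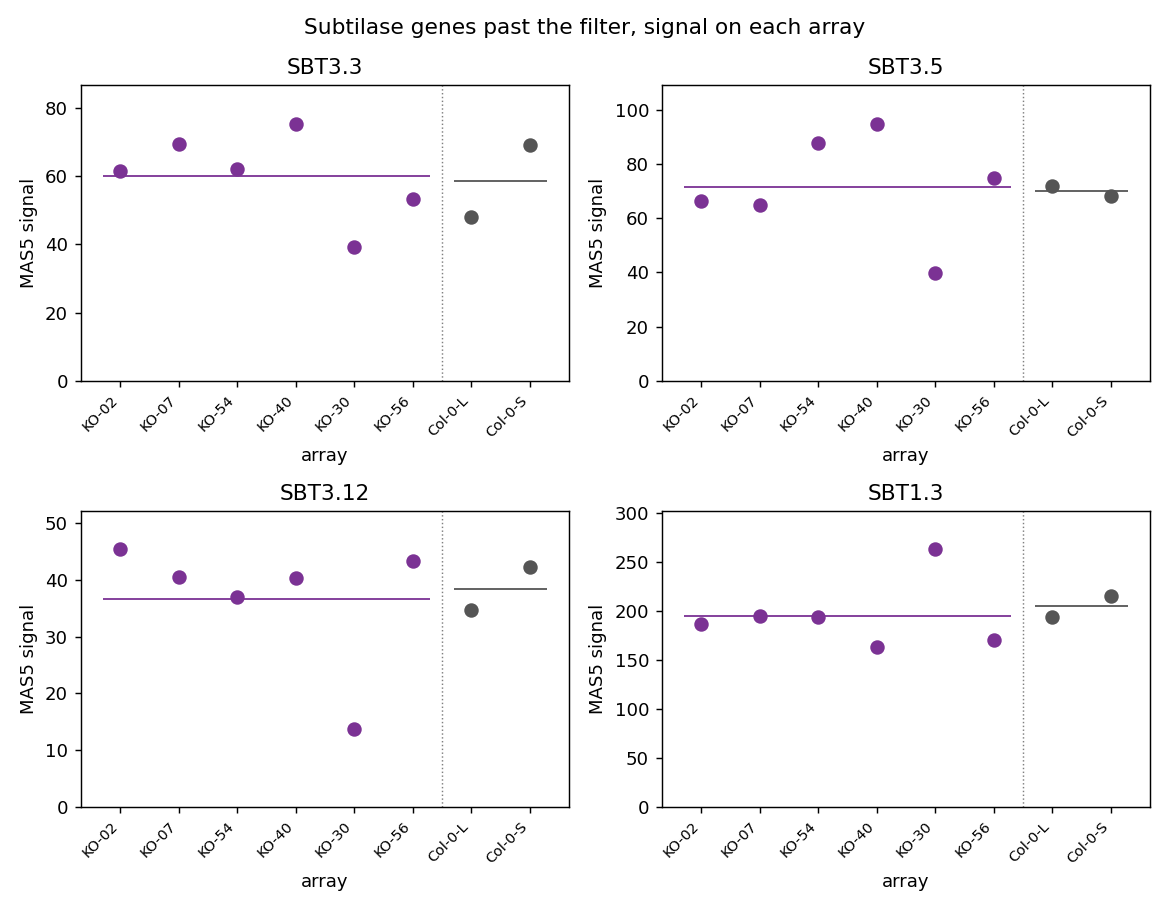
MAS5 signal (y axis, linear, from 0) of the 4 tested subtilase genes on each array (x axis), lines in purple and Col-0 in grey, with horizontal lines at the group means. KO-30 is the lowest array for SBT3.3, SBT3.5 and SBT3.12 and the highest for SBT1.3.

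In the contrast of KO-30 with the other 5 lines, 4 of 4 subtilases reached an unadjusted p under 0.05, together with GAMMA-VPE and scpl42. That made 6 of 22 genes (27.3%), against 14.2% of all probe sets in this contrast, and 0 of the 22 passed the adjusted threshold, where limma called 1 probe set (0.00628%). Against Col-0 the count in KO-30 was 2 of 22, SBT3.12 and SBT3.5, against 8.48% of all probe sets, with 1 probe set called (0.00628%) and no member among it. GAMMA-VPE in KO-30 differed by -0.55 ± 0.19 (SE) from the other 5 lines, which had 1378 to 1777 (limma adjusted p = 0.251). In the same contrast of each other line with the remaining 5, at an unadjusted p under 0.05, the counts were 0 of 22 in KO-02 (2.42% of all probe sets), 0 in KO-07 (1.24%), 1 in KO-40 (3.93%), 1 in KO-54 (8.27%) and 1 in KO-56 (9.11%). No member was called there, while limma called 0.126% of all probe sets in KO-54, 0.0691% in KO-56 and 0% in KO-02, KO-07 and KO-40. These counts are not on equal terms for the subtilases. A tested line does not enter the pooled spread, while KO-30 does so whenever another line is tested. For SBT3.12 the SE of this contrast was 0.15 with KO-30 tested and 0.44 to 0.46 with any other line. KO-30 was also singled out by its subtilase values, so its 4 of 4 is no independent support. KO-30 had the second highest actin 3′ to 5′ ratio, 15.4. In KO-54, where the ratio was 29.5, the signals were 37.1 for SBT3.12, 87.8 for SBT3.5, 61.9 for SBT3.3 and 194 for SBT1.3. The last 3 lay within the range of the remaining 4 lines, while SBT3.12 lay below their 40.3 to 45.4 and between the Col-0 arrays. The part of RNA quality in the KO-30 values was not tested. Without KO-30 the class difference was 0.09 for SBT3.12 and 0.13 for SBT3.5, and the median of the 4 subtilases was 0.11.

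The other subtilases were dim and were not tested. SBT4.12 (AT5G59090) and SBT4.13 (AT5G59120), which help to release the peptide that triggers shedding of floral organs, had 6.37 to 13.9 and 1.55 to 9.14 in the lines, against 0.492 to 8.08 and 5.92 to 9.20 in Col-0. SBT5.4 (AT5G59810) had 3.70 to 10.9 in the lines, against 14.8 and 10.7 in Col-0, and the groups overlapped.

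Of the 29 serine carboxypeptidase-like genes, 16 passed the filter. In the lines 4 of the 16 had a positive and 12 a negative difference from Col-0 (median -0.08), and the smallest limma adjusted p was 0.989. SCPL45 (AT1G28110) was the one of the 22 genes with all 6 lines below both Col-0 arrays, as were 3.1% of all probe sets. It had 116 in KO-02, 110.0 in KO-07, 128 in KO-54, 112 in KO-40, 123 in KO-30 and 103 in KO-56, against 134 (Col-0-L) and 131 (Col-0-S) in the wild type. The means were 116 ± 9.38 (SD, n = 6) in the lines and 132 ± 2.53 (SD, n = 2) in Col-0. The log2 difference was -0.19 ± 0.11 (SE; limma unadjusted p = 0.121, adjusted p = 0.989).

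The gene with all 6 lines above both Col-0 arrays was scpl48 (AT3G45010). It had 241 in KO-02, 240.5 in KO-07, 272 in KO-54, 235 in KO-40, 244 in KO-30 and 231 in KO-56, against 215 (Col-0-L) and 216 (Col-0-S) in the wild type. The lines were close to each other, with an SD of 0.08 on the log2 scale, at the 5.5th percentile of all probe sets tested. The means were 244 ± 14.4 (SD, n = 6) in the lines and 216 ± 0.628 (SD, n = 2) in Col-0. The log2 difference was 0.17 ± 0.10 (SE; limma unadjusted p = 0.129, adjusted p = 0.989), with a 95% interval from -0.06 to 0.40.

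The largest negative mean difference belonged to SCPL43 (AT2G12480), at -0.27 ± 0.23 (SE; limma adjusted p = 0.989). That place rested on KO-40 and on the pseudocount: the value was -0.16 without KO-40, and -0.14 with a pseudocount of 21, where SCPL45 had -0.17. Its signal was 20.5 in KO-02, 19.1 in KO-07, 11.4 in KO-54, 7.81 in KO-40, 13.5 in KO-30 and 15.2 in KO-56, against 17.5 (Col-0-L) and 18.6 (Col-0-S) in the wild type. Thus 4 lines lay below both Col-0 arrays and 2 above both. In KO-40 the log2 difference from Col-0 was -0.85 ± 0.26 (limma unadjusted p = 0.00979, adjusted p = 0.561), and that from the other 5 lines was -0.69 ± 0.23 (adjusted p = 0.999). The difference from Col-0 was -1.11 with a pseudocount of 1 and -0.44 with a pseudocount of 21. It was also the gene with the lowest value in KO-54, at -0.49.

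In KO-40, 13 of the 16 tested carboxypeptidase-like genes lay below the Col-0 mean (median -0.19), while 48.1% of all probe sets lay above it (median -0.01). The count was 12 of 16 in KO-30, 11 in KO-02, 11 in KO-07, 10 in KO-54 and 9 in KO-56, and all lines share the Col-0 arrays. KO-40 was the lowest of the 8 arrays for 7 of these 16 genes, while it was so for 12.8% of all probe sets. It was taken up as the array with the most such genes. The count was 3 for Col-0-L, 2 for KO-07 and KO-30, 1 for KO-54 and KO-56, and 0 for KO-02 and Col-0-S. Of the 7 genes lowest in KO-40, scpl25 (AT3G02110) had 84.3 there, against 89.0 to 109 in the other lines and 123 and 99.0 in Col-0. SCPL27 (AT3G07990) had 63.7 in KO-40, against 65.8 to 81.8 in the other lines and 81.4 and 84.8 in Col-0. For SCPL43 alone was the unadjusted p under 0.05, so 1 of 22 genes stood against 6.68% of all probe sets, and limma called 0 probe sets in KO-40 (0%). The actin 3′ to 5′ ratio of KO-40, 8.41, was the lowest of the 8 arrays.

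In KO-56 the largest positive difference was that of scpl47 (AT5G22980), with 19.6, against 9.53 to 14.0 in the other 5 lines and 9.57 and 12.8 in Col-0. No other array reached it, and the log2 difference from Col-0 was 0.61 ± 0.21 (SE; limma unadjusted p = 0.0149, adjusted p = 0.698). The difference was 0.77 with a pseudocount of 1 and 0.34 with a pseudocount of 21. It was the 1 gene of 22 with an unadjusted p under 0.05 in KO-56, where 5.5% of all probe sets had one and 1 probe set was called (0.00628%). The lowest value of the 22 genes in KO-56 was -0.35 for SCPL45.

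**Figure D5:**
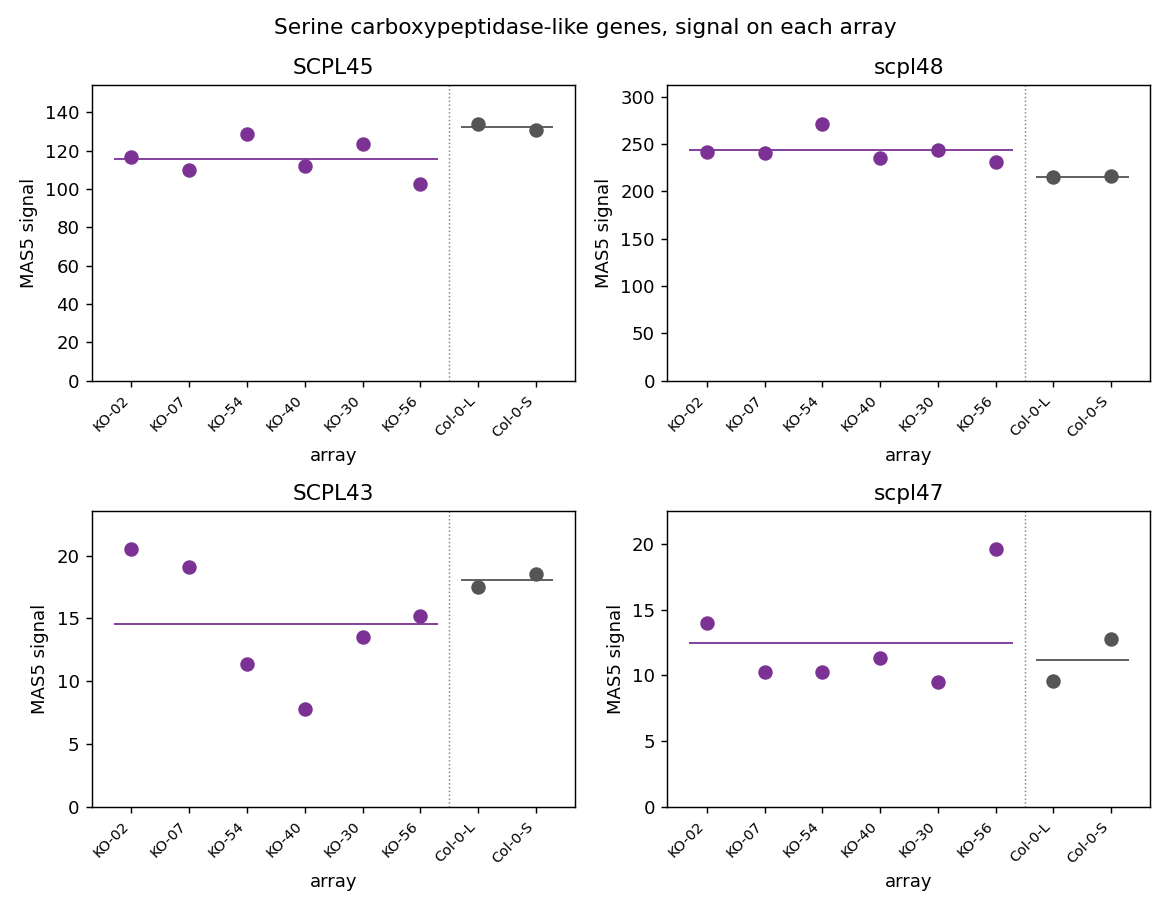
MAS5 signal (y axis, linear, from 0) of 4 serine carboxypeptidase-like genes on each array (x axis), lines in purple and Col-0 in grey, with horizontal lines at the group means. SCPL45 is lower and scpl48 higher in 6 of 6 lines than in both Col-0 arrays, while SCPL43 is lowest in KO-40 and scpl47 highest in KO-56.

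KO-02 and KO-07 stood closest to Col-0. No gene of the 22 reached an unadjusted p under 0.05 in either line, against 2.29% of all probe sets in KO-02 and 1.65% in KO-07, and limma called 0 probe sets in both (0%). GAMMA-VPE had the largest positive difference in both, at 0.33 ± 0.30 (SE) in KO-02 and 0.41 ± 0.30 in KO-07. These were 0.53 and 0.60 without Col-0-L, and 0.13 and 0.21 without Col-0-S. The lowest values were -0.21 for scpl16 in KO-02, whose signal of 8.84 there compared with 12.2 and 9.95 in Col-0 (-0.11 without Col-0-L, -0.31 without Col-0-S), and -0.26 for scpl42 in KO-07, with 121 against 147 and 146.

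The tested carboxypeptidase-like genes not named above had class differences from -0.12 to 0.04. Single lines ran from -0.35 for scpl26 in KO-40 to 0.36 for scpl46 in KO-54. Of the genes named above, the dim scpl16 had a lower value in KO-54, at -0.46 from Col-0, with a signal of 6.68 against a Col-0 mean of 11.1. SCPL49 (AT3G10410), listed in the gene table as a carboxypeptidase Y, the yeast form of which is a vacuolar peptidase, had 660 to 735 in the lines, against 699 and 771 in Col-0 (log2 difference -0.08 ± 0.10, SE). Differences of scpl26, scpl50, scpl20, scpl29 and scpl35, named after their values were seen, ran from -0.12 to -0.00. SCPL34 (AT5G23210) had 103 to 125 in the lines, inside the span of 94.1 to 126 between the Col-0 arrays. For scpl46 (AT2G33530) the mean difference was 0.04, with 159.6 in KO-54 as the highest and 100.3 in KO-30 as the lowest array.

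The 13 dim carboxypeptidase-like genes gave signals between 0.267 and 18.0, and 7 of them stayed under 10 on each array. Without the filter scpl18 and scpl23 also had all 6 lines above both Col-0 arrays, and both are named after their values were seen. scpl23 (AT2G24010) had 3.37 to 10.9 in the lines, against 2.18 and 2.58 in Col-0. scpl18 (AT1G33540) had 2.75 to 5.48 in the lines, against 2.71 and 2.55 in Col-0. For scpl18 the lowest line, KO-54 with 2.75, was next to Col-0-L with 2.71, at signals close to or below the 5 added before log2. Neither gene was tested, and the share of all unfiltered probe sets with such a separation was not counted.

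Several of the 40 genes are neighbours. In the gene table scpl22 and scpl23, and likewise scpl28 and scpl26, have no other protein-coding gene between them, 2 lie between scpl41 and scpl42, and 3 between SBT4.12 and SBT4.13. Both members were below the filter in the scpl22 and the SBT4.12 pair. In the other pairs scpl26 and scpl42 were tested while scpl28 and scpl41 were not. SBT3.5 and SBT3.3 were the one such pair with both members tested, and KO-30 was the lowest array for each.

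Lists of related genes were small, since the annotation names few of them. Genes of vacuolar sorting were here all VPS proteins, which help to carry cargo towards the vacuole. Of 9 tested, 8 were higher in the lines by mean (median 0.15), and limma called 0 of 9. Among all probe sets 47.3% had a positive difference. Each of the 9 but VPS46.2 was also lower in Col-0-L than in Col-0-S. Against Col-0-S alone the mean signal of the lines was lower for VPS2.2, VPS24.1, VPS22 and VPS46.2. VPS20.1 had 104.5 to 200.2 in the lines, against 92.0 and 135 in Col-0 (0.45 ± 0.22 on the log2 scale, SE; limma adjusted p = 0.989), and VPS60.1 had 84.6 to 112, against 73.1 and 87.5 (0.31 ± 0.14, adjusted p = 0.989). The groups overlapped for both.

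No member of the lists of other proteases and their inhibitors was called by limma. The vacuolar aspartic protease APA1 had 1817 to 2194 in the lines, against 2087 and 1812 in Col-0 (log2 difference 0.01), and the chloroplast-linked NANA had a difference of -0.09. Of the inhibitors, CYS1, a cystatin that blocks cysteine proteases, had 828 to 1208 in the lines, against 854 and 847 in Col-0 (0.14 ± 0.15, SE), highest in KO-30, and SERPIN1 had a difference of 0.02. The plastid proteases CLPP4 and SPPA differed by -0.11 and 0.03. Each of these had a limma adjusted p of 0.989 or above. The cysteine protease gene CP1 stayed below the filter, and no probe set was paired with a gene of the metacaspase or xylem lists in the annotation used here. Of the stomatal markers FMA was tested, with 31.0 to 58.8 in the lines, against 60.6 and 31.2 in Col-0, and SPCH and MUTE were dim.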

How the data were processed

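RNA of 8 rosette samples was measured on 8 ATH1 arrays. The deposited intensity values are linear probe set signals. Per the submitters' processing notes they come from MAS5 (version not given in the sources used here). The deposited table holds 22810 probe sets without detection calls, of which 64 controls were left out, and 0 columns lacked a sample. The authors' scaling was kept. The platform annotation pairs 13513 probe sets with 1 gene, 503 with several and does not list 8730. Of the 40 genes, 40 matched the TAIR10.1 gene table.

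Before log2, 5 was added to each signal, close to their 20th percentile, and probe sets at or below the 30th percentile of mean log2 were left out. With R 4.3.3, two-sided tests in limma 3.58.1 compared the 6 lines with Col-0 (6 residual degrees of freedom) and each line with Col-0 and with the other 5 lines in a model with 3 levels (5 residual degrees of freedom). Such a fit assumes that a single array varies as the rest do, and each line comparison shares the same Col-0 arrays. Benjamini-Hochberg adjustment ran over all 15922 probe sets, with a threshold of 0.05. The procedure was run on simulated data with known changes. How many changes of the size seen here it would miss is not given, so an uncalled gene is not shown to be unchanged. Families and lists were described by counts and medians, with no test.

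The genes, lists and rules were chosen with earlier results of these data known. Genes named were all VPE genes, those with 6 lines beyond both Col-0 arrays, the 4 largest positive and negative mean differences in each of the SBT and SCPL families, the extremes of each line, and the widest gap between Col-0 arrays. Alternatives were other pseudocounts, filters, normalizations and variance models, array weights, and leaving out arrays.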

Additional observations from a re-analysis of the deposited data

Results flagged for a closer look

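Among the 6 lines, 35 genes named or listed were checked for an array far from the others on the log2 scale. Dixon's test with a critical value of 0.625 flagged 4 of them. Some of the genes, SBT3.12 and SBT1.3 among them, had been named as the extreme of a line. The usual chance rate of about 1 in 20 therefore does not hold for this set, and the flags are no independent support. SBT3.12 stood apart in KO-30 with a signal of 13.6, and SBT1.3 stood apart in KO-30 with 263, on the high side. The signal of scpl48 in KO-54, 272, stood above the other 5 lines, which lay close together at 231 to 244. Its log2 difference from those lines was only 0.19, and the class difference of scpl48 without KO-54 was 0.14. RCA, a leaf marker, stood apart in KO-40 with 2710, below the other lines.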

How the results depend on the processing

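No member was called against Col-0, in the class comparison or in any line, under any alternative run. Probe sets called, with leaving out 1 array in turn given as a range, were 1 in the class comparison with trended and robust variances (0 to 0). In KO-54 they were 20 with a pseudocount of 1, 7 with a pseudocount of 21, 0 without the filter, 18 with trended and robust variances and 0 with array weights (0 to 17). In KO-40 they were 4 with a pseudocount of 21, 1 with trended and robust variances and 6 with array weights (0 to 1). In KO-30 they were 2 without the filter (1 to 1), and in KO-56 6 without the filter and 0 with a pseudocount of 21, the median filter, trended and robust variances or array weights (0 to 3). Members with every line above both Col-0 arrays numbered 3 without the filter and 2 without KO-54 and KO-30 (1 to 3). Those below both numbered 2 without KO-54 and KO-30 (1 to 4). Without KO-30 the count above was 2, and without KO-56 the count below was 2. Beyond the single Col-0 array left, there were 2 above and 4 below without Col-0-L, and 3 and 4 without Col-0-S. Each array left out makes this rule easier to meet. The share over all probe sets was counted in the main setting alone, so these counts were not read as a result about the members.

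Of 708 gene values under alternatives, 28 had the other sign, none of them past the threshold, and the cause was not tested. Class differences were -0.02 to 0.13 for BETA-VPE, -0.25 to 0.09 for SBT3.12, -0.11 to 0.13 for SBT3.5, -0.21 to 0.27 for SBT3.3, -0.16 to 0.23 for SCPL34, -0.05 to 0.13 for scpl46, -0.05 to 0.24 for scpl47 and -0.13 to 0.08 for scpl16 when 1 array was left out. Among these, the values of opposite sign were -0.018 for BETA-VPE without KO-56, 0.095 without KO-30 and 0.0018 without Col-0-S for SBT3.12, and 0.13 without KO-30 and 0.014 without Col-0-L for SBT3.5. They were -0.012 without KO-07, -0.034 without KO-40 and -0.21 without Col-0-L for SBT3.3, -0.16 without Col-0-L for SCPL34, and -0.026 without KO-54 and -0.054 without Col-0-S for scpl46. For scpl47 they were -0.011 without KO-56 and -0.052 without Col-0-L, and for scpl16 0.011 without KO-02, 0.060 without KO-54 and 0.075 without Col-0-L. Without KO-54 and KO-30 they were 0.13 (SBT3.12), 0.080 (SBT3.5), -0.014 (SCPL34) and 0.10 (scpl16). With array weights SBT3.12 had 0.014, SBT3.5 0.00099 and scpl16 0.023, and with quantile normalization scpl16 had 0.018. GAMMA-VPE in KO-30 against Col-0 was -0.34 to 0.054 (0.054 without Col-0-L), and in KO-02 against the other lines -0.093 (without KO-30) to 0.10, with -0.036 under array weights and -0.0022 with centred arrays. The KO-30 difference of SBT3.12 from the other lines passed with trended and robust variances alone (adjusted p from 0.0326 to 0.999 over all alternatives). No paired analysis was possible because every array carries the same replicate number. Members by updated symbols numbered 40. The number of arrays and, for dim genes, signals near the pseudocount limit these values.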
